A study of Homo sapiens with 6 samples.

Results

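Nuclear receptors are transcription factors that bind DNA through zinc fingers, and many of them change activity when a small lipophilic ligand sits in a pocket of the protein. The genes described here are 10 of the 22718 genes with a row in the deposited tables, chosen by name: the COUP transcription factors NR2F1 and NR2F2 with their relative NR2F6, the glucocorticoid receptor NR3C1, the orphan receptors NR4A1, NR4A2 and NR4A3, the estrogen-related receptor ESRRG, the thyroid hormone receptor THRA and the vitamin D receptor VDR. Each identifier matched a row. RNA was sequenced from cells labelled HT1197, an established human bladder carcinoma line, after 48 hours in panobinostat, an inhibitor of histone deacetylases, dosed at 2 times the IC50 measured for the line (3 libraries, A to C), or in 1% DMSO as vehicle, condition "untreated" in the sample labels (3 libraries, A to C). Cells were seeded in triplicate dishes of a single line, and the labels do not say which dish gave which library. The p-values therefore rest on variation among libraries that could be purely technical. The comparison asks which receptor transcripts differed after the inhibitor.

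COUP factors act largely as repressors and are best known from vascular, atrial and neuronal development. The NR4A receptors are encoded by early response genes, appear to act without a classical ligand, and are controlled mainly by how much of them is made. The glucocorticoid receptor waits in the cytoplasm with HSP90 chaperones until it binds hormone. ESRRG drives genes of oxidative metabolism together with the coactivators of the PGC-1 family. THRA and VDR bind DNA mainly as heterodimers with a retinoid X receptor.

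Libraries held 13417898 to 18186087 counts, and 3 counts, taken as the detection floor, equalled 0.165 to 0.224 CPM (a gene's share of its library, scaled by TMM). Libraries of the same arm correlated at a Spearman rho of 0.993 to 0.997 over genes. The markers did not match the labelled urothelial line. Of 25 luminal urothelial markers 15 had a row, and 2 stood at a mean of 10 or more FPKM (counts per length of the gene, scaled to the library) with panobinostat and 3 with vehicle. Those were XBP1 (52.3 FPKM with panobinostat and 84.2 FPKM with vehicle), TBX3 (42.4 and 36.4 FPKM) and, with vehicle only, GATA3 (9.15 and 10.6 FPKM). GATA3 is also on the neuroblast list below. KRT8 stood at 0.0207 FPKM with panobinostat and 0.0115 FPKM with vehicle. Of 20 basal markers 12 had a row and 0 reached 10 FPKM in either arm. Of 24 adrenergic neuroblast markers 23 had a row, and 14 reached 10 FPKM with panobinostat and 20 with vehicle. Among those that did not, TH stood at 0.0683 FPKM with panobinostat and 0.0875 FPKM with vehicle. SLC18A2 stood at 0.0788 FPKM with panobinostat and 0.0946 FPKM with vehicle. The cells are therefore called the libraries labelled HT1197. The summed level of the neuroblast list was 1917 to 1999 FPKM with panobinostat and 2276 to 2579 FPKM with vehicle. That of the luminal list was 108 to 117 FPKM with panobinostat and 122 to 148 FPKM with vehicle, and that of the basal list 6.99 to 8.39 FPKM with panobinostat and 3.32 to 3.53 FPKM with vehicle. A list of 10 fibroblast markers summed to 95.6 to 102 FPKM with panobinostat and 62.1 to 65.3 FPKM with vehicle. That difference was carried by LUM, the proteoglycan lumican, and without it the means summed to 56.9 FPKM with panobinostat and 63.3 FPKM with vehicle. Leukocyte and endothelial markers had 0 genes at 10 FPKM in either arm. The part of these shifts in the receptor results was not tested, and in bulk RNA fewer cells of a type and less RNA per cell cannot be told apart.

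With panobinostat, ESRRG, NR3C1 and NR4A2 rose, NR2F2 and NR4A1 fell, and NR2F1, NR2F6, NR4A3 and THRA did not pass the test (edgeR quasi-likelihood, Benjamini-Hochberg adjusted p of 0.05 or less over 16084 genes). VDR had too few counts to be tested in that fit. Of all genes tested, 65.2% passed in either direction, 33.7% higher and 31.5% lower, so 3 higher and 2 lower among 9 receptors tested is a share near the background and no result about the receptors as a group. The arms did not overlap in CPM for 5 of the 9, against 68.8% of all genes tested (35.5% with panobinostat above vehicle and 33.4% with panobinostat below). The median log2 fold change of the 9 was 0.17, against 0.01 for all genes. All 9 reached the count filter in both arms. The results below are therefore those of single genes and of the balance within each family.

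**Figure D1:**
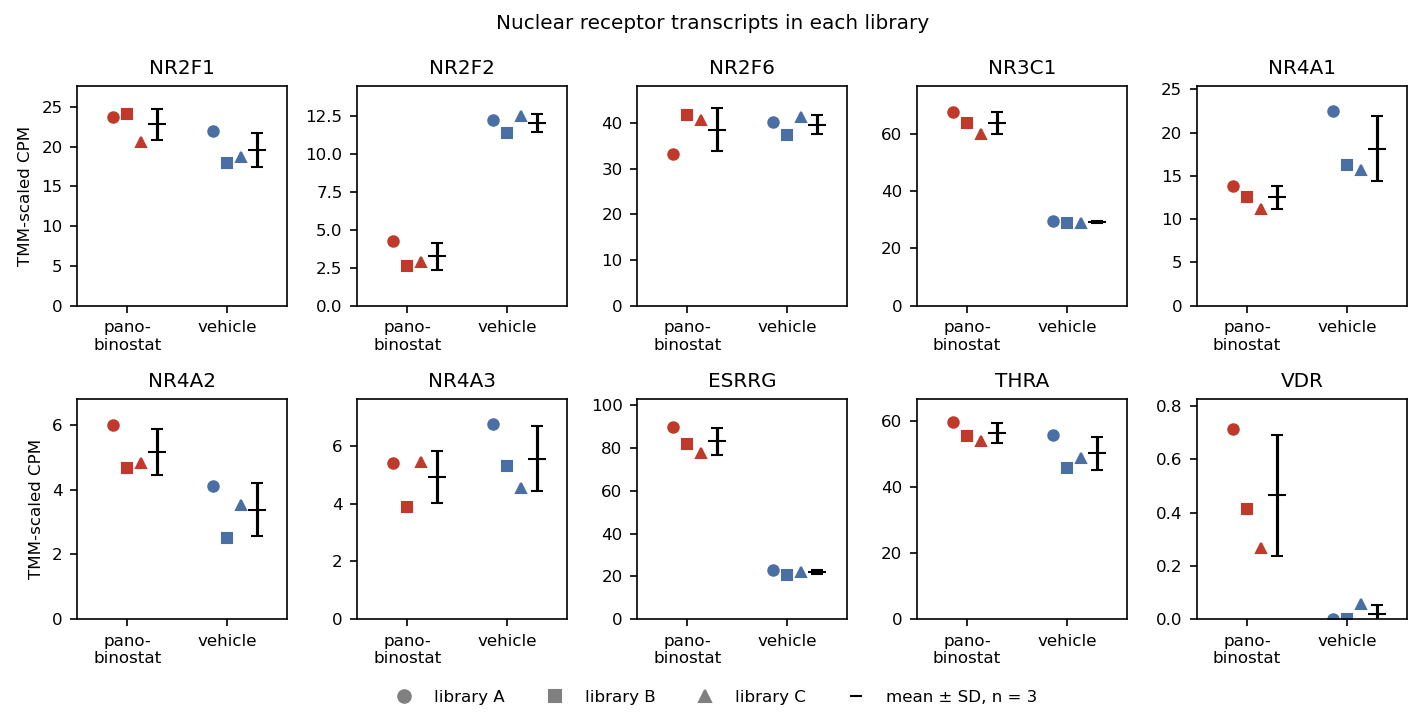
Library-scaled counts (TMM-scaled CPM, each panel with its own axis from 0) of the 10 receptors, with panobinostat libraries in red on the left and vehicle libraries in blue on the right; points are libraries A to C and bars are mean ± SD, n = 3, drawn only down to 0. ESRRG and NR3C1 stand far above vehicle in every panobinostat library, NR2F2 stands far below, and the arms overlap for NR2F1, NR2F6, NR4A3 and THRA.

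Per gene length, NR2F6 was the most abundant of the 10 transcripts in both arms, at 14.9 ± 1.77 FPKM with panobinostat and 14.2 ± 0.81 FPKM with vehicle (mean ± SD, n = 3). With panobinostat THRA (8.42 FPKM), ESRRG (7.92 FPKM) and NR3C1 (7.25 FPKM) followed, and each of these had a range over libraries that overlapped its neighbour's. NR2F1 (5.64 FPKM) came next and stood apart from its neighbours. NR4A1 (1.78 FPKM) and NR4A2 (1.35 FPKM) overlapped, as did NR4A3 (0.810 FPKM) and NR2F2 (0.524 FPKM). With vehicle the order was NR2F6, THRA (6.94 FPKM), NR2F1 (4.48 FPKM), NR3C1 (3.06 FPKM), NR4A1 (2.39 FPKM), ESRRG (1.93 FPKM), NR2F2 (1.80 FPKM), NR4A3 (0.846 FPKM) and NR4A2 (0.820 FPKM). ESRRG and NR2F2 overlapped there, and so did NR4A3 and NR4A2. VDR came last in both arms. ESRRG thus stood at rank 3 of 10 with panobinostat and rank 6 with vehicle, and NR2F2 at rank 9 with panobinostat and rank 7 with vehicle.

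Within the COUP family the transcripts diverged. NR2F2 (ENSG00000185551, GRCh38 chromosome 15, 96325938 to 96340263, plus strand), required in mice for the development of veins and atria, stood at 4.28, 2.60 and 2.89 CPM in panobinostat libraries A, B and C, against 12.3, 11.4 and 12.5 CPM in vehicle libraries A, B and C. Every panobinostat library lay below every vehicle library. The level was 3.75-fold lower with panobinostat, a log2 fold change of -1.91 ± 0.17 (estimate ± SE, edgeR adjusted p = 1.87e-07). Of all genes, 5.27% fell at least 2-fold. NR2F2 shared 0% of its 50-base stretches with transcripts of another gene.

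NR2F1 (ENSG00000175745, chromosome 5, 93583224 to 93594615, plus strand), the close relative known for its part in patterning the cerebral cortex, stood at 23.8, 24.1 and 20.6 CPM with panobinostat, against 22.0, 18.0 and 18.8 CPM with vehicle. The arms overlapped, since vehicle library A lay above panobinostat library C. The log2 fold change was 0.22 ± 0.11 (edgeR adjusted p = 0.0828), which did not pass the test. It passed without vehicle library A (adjusted p = 0.0234) and without panobinostat library C (adjusted p = 0.0431), so 1 library decides the call. NR2F1-AS1, transcribed from the opposite strand, overlaps NR2F1 by 158 exon bases. It rose to 6.16 ± 0.66 CPM with panobinostat, against 4.14 ± 0.28 CPM with vehicle (log2 fold change 0.57 ± 0.16, edgeR adjusted p = 0.00584). Reads were assigned by strand, per the file headers. The counterpart NR2F2-AS1 was not analysed here.

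The NR2F1 to NR2F2 ratio of FPKM was 8.53, 14.3 and 10.9 in panobinostat libraries, against 2.76, 2.42 and 2.30 in vehicle libraries. The arms did not overlap, and no test was made of this ratio. NR2F2 made up 2.53 ± 0.90% of the summed FPKM of the family with panobinostat and 8.76 ± 0.16% with vehicle. The sum itself was 19.5, 22.7 and 21.1 FPKM with panobinostat, against 21.5, 19.1 and 20.9 FPKM with vehicle, and overlapped. It was carried mostly by NR2F6 (ENSG00000160113, chromosome 19, 17231883 to 17245940, minus strand), a repressor in T cells. NR2F6 stood at 33.1, 41.7 and 40.8 CPM with panobinostat, against 40.2, 37.3 and 41.4 CPM with vehicle. Panobinostat library A was the lowest of the 6, and the log2 fold change was -0.04 ± 0.10 (edgeR adjusted p = 0.754). Exons of a same-strand gene, AC010646.1, cover 221 exon bases of NR2F6, so its level is uncertain to that extent.

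Other genes of the COUP factors' setting moved both ways. Of 11 tested, 4 rose and 5 fell, with a median log2 fold change of 0.08, against 33.7% higher and 31.5% lower over all genes. TFAP2B, a transcription factor of the neural crest, fell by 2.12 ± 0.12 on the log2 scale. NRP1 and NRP2, neuropilin coreceptors for semaphorins and VEGF, fell by 0.79 ± 0.07 and 0.66 ± 0.08. HEY1, a Notch target repressor, rose by 1.74 ± 0.11. BCL11A and BCL11B, zinc finger proteins that bind COUP factors, fell by 0.49 and 0.64.

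ESRRG (ENSG00000196482, chromosome 1, 216503246 to 217137755, minus strand) rose most of the 9 receptors tested. It stood at 90.0, 81.8 and 77.8 CPM in panobinostat libraries, against 22.9, 20.8 and 22.1 CPM in vehicle libraries. No library of either arm came near the other arm. The log2 fold change was 1.92 ± 0.09 (edgeR adjusted p = 1.36e-10), a 3.79-fold rise, and 16.8% of all genes rose at least 2-fold. In the 14 settings on counts other than the one reported, its log2 fold change stayed between 1.87 and 2.06. Among them, the setting with an adjusted p of 0.01 uses the same fit, so its fold change could not differ.

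NR3C1 (ENSG00000113580, chromosome 5, 143277931 to 143435512, minus strand), the receptor for cortisol, stood at 68.0, 64.1 and 60.2 CPM with panobinostat, against 29.6, 29.1 and 28.9 CPM with vehicle. The 3 vehicle libraries were nearly equal and all lay far below the panobinostat libraries. The log2 fold change was 1.13 ± 0.08 (edgeR adjusted p = 1.78e-08), a 2.19-fold rise. Both genes are transcribed from several starts, and which start these cells use was not measured.

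Promoter stretches are shown for the called receptors ESRRG, NR3C1 and NR4A1 and for NR4A3, whose family member moved while it did not pass the test. The sequences come from RefSeq on GRCh38.p14, which held windows for 7 of the 10 receptors. NR2F6, NR4A2 and VDR had none. Each stretch lies within the 250 bases before an annotated start and stops short of exons of the same strand. Of a gene's stretches of 150 bases or more, the stretch with the most GENCODE starts within 100 bases is shown, and among equals the most upstream. Capitals mark matches on either strand to the cyclic AMP response element TGACGTCA or its core TGACG, the receptor hexamer AGGTCA or its extension AAAGGTCA, the GC box GGGCGG, the box named CCAAT for its letters, the TATA box TATAAA or the glucocorticoid receptor's AGAACA. The core lies within the full element and AGGTCA within AAAGGTCA.
ESRRG, chr1:216723473-216723679, minus strand: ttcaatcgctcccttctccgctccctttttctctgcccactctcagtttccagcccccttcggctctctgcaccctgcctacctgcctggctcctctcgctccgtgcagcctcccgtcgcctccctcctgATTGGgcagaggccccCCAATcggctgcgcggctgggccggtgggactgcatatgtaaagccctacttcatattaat
NR3C1, chr5:143435513-143435762, minus strand: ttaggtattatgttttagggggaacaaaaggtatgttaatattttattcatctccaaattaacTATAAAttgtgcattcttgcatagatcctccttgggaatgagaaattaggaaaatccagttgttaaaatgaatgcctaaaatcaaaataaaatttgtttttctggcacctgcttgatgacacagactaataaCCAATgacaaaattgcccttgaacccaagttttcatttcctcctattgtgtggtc
NR4A1, chr12:52022582-52022831, plus strand: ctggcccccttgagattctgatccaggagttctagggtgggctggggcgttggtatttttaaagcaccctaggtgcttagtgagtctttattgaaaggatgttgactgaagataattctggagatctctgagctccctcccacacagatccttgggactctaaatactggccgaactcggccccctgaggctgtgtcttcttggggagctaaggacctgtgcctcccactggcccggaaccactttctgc
NR4A3, chr9:99821635-99821854, plus strand: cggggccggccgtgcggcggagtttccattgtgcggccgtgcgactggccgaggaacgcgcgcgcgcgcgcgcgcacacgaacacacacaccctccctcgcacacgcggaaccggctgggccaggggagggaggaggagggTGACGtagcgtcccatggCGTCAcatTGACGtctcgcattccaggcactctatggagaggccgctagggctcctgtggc
The ESRRG stretch holds CCAAT matches 120 and 104 bases before the start, and 32% of the 35116 RefSeq windows hold at least 1. The NR3C1 stretch is the most upstream of its starts, poor in G and C at 32.8%, with TATAAA 187 bases and CCAAT 55 bases before the start. TATAAA occurs in 10.7% of windows. The NR3C1 stretch differs from the gene's other 6 windows, of which 5 are 59.2 to 82% G and C and hold a GC box. Those overlap exons, or have fewer annotated starts nearby, and are not shown. The NR4A1 stretch holds none of the letters searched, while the gene's other stretch, with as many starts, holds a GC box, as do 42.6% of windows. The NR4A3 stretch is 70% G and C and holds the core TGACG 109, 91 and 83 bases before the start. With a further match in the last bases of its window there are 4, and 0.236% of all windows hold at least 4, while 21.2% hold at least 1. A window at another ESRRG start held AAAGGTCA, the sequence that NR4A receptors bind as monomers, present in 1.05% of windows. These are matches of letters, and no binding was measured here.

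In the NR4A family, NR4A1 fell and NR4A2 rose. NR4A1 (ENSG00000123358, chromosome 12, 52022832 to 52059507, plus strand), also called Nur77, stood at 13.8, 12.5 and 11.1 CPM in panobinostat libraries, against 22.5, 16.2 and 15.7 CPM in vehicle libraries. The arms did not overlap, and vehicle library A was well above the others. The log2 fold change was -0.53 ± 0.14 (edgeR adjusted p = 0.00416). The opposite-strand gene AC025259.3 overlaps 754 of its exon bases. With limma on log2(FPKM + 1) and a filter the fall did not pass the test (adjusted p = 0.0868).

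NR4A2 (ENSG00000153234, chromosome 2, 156324432 to 156342348, minus strand), also called Nurr1 and needed for midbrain dopamine neurons, stood at 5.99, 4.67 and 4.82 CPM with panobinostat, against 4.11, 2.52 and 3.52 CPM with vehicle. Every panobinostat library lay above every vehicle library, by a narrow margin. The log2 fold change was 0.61 ± 0.20 (edgeR adjusted p = 0.0149). The call ended without panobinostat library A (adjusted p = 0.0519) and without vehicle library B (adjusted p = 0.0828).

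NR4A3 (ENSG00000119508, chromosome 9, 99821855 to 99866891, plus strand), also called NOR1, stood at 5.42, 3.90 and 5.46 CPM with panobinostat, against 6.78, 5.32 and 4.56 CPM with vehicle. The arms overlapped, and the log2 fold change of -0.16 ± 0.19 (edgeR adjusted p = 0.469) was smaller than its error. The sum of the 3 genes was 4.46, 3.67 and 3.70 FPKM with panobinostat, against 5.04, 3.53 and 3.60 FPKM with vehicle. NR4A1 made up 45.2 ± 3.35% of that sum with panobinostat and 58.9 ± 1.49% with vehicle, and NR4A2 made up 34.2 ± 1.05% with panobinostat and 20.2 ± 3.23% with vehicle. No library of the panobinostat arm reached the vehicle range in either share, and no test was made of the shares. Of all tested genes with a mean of 1 to 10 CPM, the range that holds NR2F2, NR4A2 and NR4A3, 60.6% passed the test, 43.9% higher and 16.7% lower, and at 10 to 100 CPM, the range of the other 6 receptors tested, 68.9% passed, 28.5% higher and 40.5% lower.

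**Figure D2:**
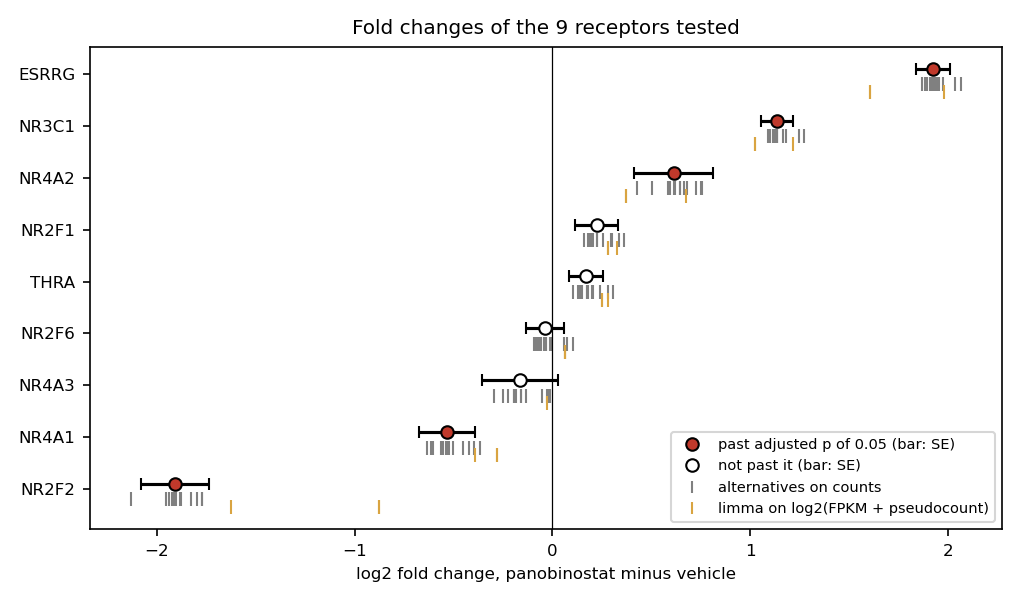
Log2 fold change, panobinostat minus vehicle, of the 9 receptors tested; circles and bars are the edgeR estimate ± SE, filled where the adjusted p was 0.05 or less, and ticks are the other settings, limma on log2(FPKM + pseudocount) in orange. ESRRG (1.92) and NR2F2 (-1.91) lie at the ends, and the limma ticks lie nearer to 0 than the counts where the pseudocount is large against the level, as for NR2F2.

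Early response genes that are often induced with the NR4A receptors moved both ways. Of 15 tested, 8 rose and 4 fell, with a median log2 fold change of 0.47, against 33.7% higher and 31.5% lower over all genes. Of the 12 that reached the count filter in both arms, 6 rose and 4 fell. FOS, a subunit of AP-1, rose to 10.7 ± 1.68 CPM with panobinostat, against 1.03 ± 0.31 CPM with vehicle (log2 fold change 3.37 ± 0.22). EGR1, a zinc finger factor, rose by 2.72 ± 0.31, and IER3 by 2.37 ± 0.14. EGR1 reached the filter through the panobinostat arm alone, with 7, 5 and 7 counts in vehicle libraries A, B and C. DUSP4, a phosphatase of MAP kinases, fell by 1.12 ± 0.08.

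Among 9 tested genes of the dopaminergic programme known for NR4A2, 3 rose and 4 fell, with a median of -0.14, against 33.7% higher and 31.5% lower over all genes. Of the 7 in the list that reached the filter in both arms, 1 rose and 4 fell. TH and SLC18A2 of the list had too few counts to be tested. TH had 11 counts over the panobinostat libraries and 14 over the vehicle libraries, and SLC18A2 had 15 and 20. ALDH1A1, an aldehyde dehydrogenase of dopamine neurons, rose to 6.85 ± 0.53 CPM with panobinostat, against 0.276 ± 0.139 CPM with vehicle. LMX1B, a homeodomain factor, rose by 4.52 ± 0.30 on the log2 scale and the neuropeptide gene VIP by 3.68 ± 0.15. ALDH1A1 and LMX1B reached the filter through the panobinostat arm alone. In vehicle libraries A, B and C, ALDH1A1 had 5, 6 and 2 counts and LMX1B had 11, 5 and 3. DLK1 fell to 40.7 ± 2.05 CPM with panobinostat, against 231 ± 20.8 CPM with vehicle. RET, a receptor tyrosine kinase, fell by 0.99 and DDC, which makes dopamine, by 0.24. These genes have other regulators too, so the list is a set of known associates of NR4A2 and no readout of it.

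Of 20 glucocorticoid response genes tested, 15 rose and 4 fell, with a median log2 fold change of 1.26, against 33.7% higher and 31.5% lower over all genes. Of the 20, 7 reached the count filter through the panobinostat arm alone, where they are high, and among the 13 that reached it in both arms 8 rose and 4 fell. MT2A, a metallothionein, rose to 28.3 ± 4.28 CPM with panobinostat, against 3.28 ± 1.16 CPM with vehicle. ANGPTL4, a secreted inhibitor of lipoprotein lipase, rose by 3.59 ± 0.39 on the log2 scale. It reached the filter through the panobinostat arm alone, with 5, 2 and 2 counts in vehicle libraries A, B and C.

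Genes of the same list also fell. CEBPD, a C/EBP factor, fell to 2.40 ± 0.24 CPM with panobinostat, against 28.6 ± 1.26 CPM with vehicle (log2 fold change -3.56 ± 0.13). FKBP5, a cochaperone, fell by 0.58, and TSC22D3 had a log2 fold change of 0.24 that did not pass the test. Most of the list went the other way, with 15 that rose and 4 that fell. PER1, DUSP1 and KLF9 were among those that rose, by 1.23, 0.58 and 1.86. Activity of the receptor was not tested. Hormone was not among the labelled treatments. Of 11 chaperones and cochaperones of the receptor tested, 0 rose, 6 fell and 5 did not pass the test, with a median of -0.31, beside the same shares over all genes. HSP90AA1 fell to 433 ± 57.7 CPM with panobinostat, against 952 ± 107 CPM with vehicle. FKBP4, which links the receptor to dynein, fell by 0.93 ± 0.08, HSPA8 by 0.77 ± 0.08 and DNAJA1 by 0.69 ± 0.08.

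THRA (ENSG00000126351, chromosome 17, 40058290 to 40093867, plus strand) stood at 59.8, 55.7 and 53.9 CPM with panobinostat, against 55.8, 45.9 and 49.0 CPM with vehicle. Vehicle library A lay within the panobinostat range, and the log2 fold change was 0.17 ± 0.09 (edgeR adjusted p = 0.103). It passed without vehicle library A (adjusted p = 0.0190). THRA overlaps the opposite-strand NR1D1 by 263 exon bases, and the NR1D1 to THRA ratio of FPKM was 0.112 ± 0.016 with panobinostat and 0.107 ± 0.011 with vehicle. The related THRB rose to 18.5 ± 2.42 CPM with panobinostat, against 11.3 ± 0.35 CPM with vehicle (log2 fold change 0.70 ± 0.12). Of 10 thyroid hormone response genes tested, 4 rose and 4 fell, with a median of -0.0023, a split near that of all genes. Of the 8 that reached the count filter in both arms, 3 rose and 4 fell. KLF9, a zinc finger target shared with the glucocorticoid list, rose by 1.86 ± 0.11, and the channel gene HCN2 by 0.81 ± 0.12. MED24, a Mediator subunit, fell to 27.1 ± 2.38 CPM with panobinostat, against 95.6 ± 10.1 CPM with vehicle. Its gene overlaps the span of THRA on the opposite strand, with 0 exon bases shared.

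VDR (ENSG00000111424, chromosome 12, 47841537 to 47943048, minus strand) had 10, 7 and 5 counts in panobinostat libraries A, B and C, against 0, 0 and 1 counts in vehicle libraries A, B and C. The summed counts, scaled to the libraries, stood 21.4-fold higher with panobinostat, and the 95% exact interval, for counting error only, ran from 3.46 to 884. Without the count filter, edgeR called it higher (adjusted p = 0.00125), and so did DESeq2 (adjusted p = 0.00730). Its level stayed low, at 0.131, 0.0761 and 0.0485 FPKM with panobinostat. Of 7 vitamin D response genes tested, 5 rose and 2 fell, against 33.7% higher and 31.5% lower over all genes. Of the 6 that reached the count filter in both arms, 4 rose and 2 fell. CALB1, the calcium buffer calbindin, rose to 40.7 ± 3.83 CPM with panobinostat, against 1.43 ± 0.08 CPM with vehicle. IGFBP3 rose by 1.24 ± 0.08 and CYP2R1, a vitamin D 25-hydroxylase, by 1.35 ± 0.09. CYP27B1, which makes the active hormone, fell by 0.84, and CYP24A1, the strongest known target of the receptor, had too few counts to be tested.

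The estrogen-related receptors changed in their proportions. ESRRA, the most widely expressed member of that family, rose to 35.8 ± 5.52 CPM with panobinostat, against 22.6 ± 1.98 CPM with vehicle (log2 fold change 0.67 ± 0.12). The ESRRA to ESRRG ratio of FPKM was 1.18, 1.75 and 1.77 in panobinostat libraries, against 3.70, 3.51 and 3.89 in vehicle libraries. No panobinostat library reached the vehicle range, and no test was made of the ratio. The coactivators PPARGC1A and PPARGC1B rose by 0.84 ± 0.10 and 0.96 ± 0.16, and the related PPRC1 fell by 1.48 ± 0.12. Of 13 tested genes of mitochondrial metabolism known as targets of these receptors, 5 rose and 5 fell, with a median of -0.18. Over all genes 33.7% were higher and 31.5% lower, with a median of 0.01, so the split of this list is near the background. The list itself holds ESRRA and PPARGC1A. Of its 11 genes that reached the filter in both arms, 4 rose and 5 fell. CYCS, cytochrome c, rose by 0.52 ± 0.08 and UQCRFS1, a subunit of complex III, fell by 0.60 ± 0.07.

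Receptors outside the 10 rose more often than they fell. Of 26 other nuclear receptors tested, 16 rose and 3 fell, with a median log2 fold change of 0.53, against 33.7% and 31.5% of all genes. Of these, 3 reached the count filter through the panobinostat arm alone, and among the 22 that reached it in both arms 13 rose and 3 fell. At a mean of 10 CPM or more, THRB, RORB, NR1H2, ESRRA and NR3C2 rose, and RARA, RXRB and NR2C2 fell. The remaining rises were all below 10 CPM. Of all genes at 1 to 10 CPM, 43.9% were higher and 16.7% lower. At 10 to 100 CPM, 28.5% were higher and 40.5% lower. The retinoic acid receptors RARG and RARB rose by 2.34 ± 0.19 and 1.97 ± 0.18 on the log2 scale, while RARA fell to 33.0 ± 3.48 CPM with panobinostat, against 56.0 ± 7.23 CPM with vehicle. NR2E1, an orphan receptor of neural stem cells, had 229 counts over the panobinostat libraries and 0 over the vehicle libraries, which is at least 74.3-fold higher when 3 counts are set for the whole vehicle arm. ESR1, the estrogen receptor, had 43 counts with panobinostat and 0 with vehicle, at least 13.95-fold higher in the same way.

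RXRA and RXRB, heterodimer partners of THRA and VDR, were not among the receptors that rose. RXRA stood at 45.5 ± 3.48 CPM with panobinostat and 49.9 ± 3.56 CPM with vehicle (log2 fold change -0.13 ± 0.09, edgeR adjusted p = 0.197), and RXRB fell by 0.66 ± 0.10. NR3C2, the mineralocorticoid receptor, rose to 36.7 ± 0.56 CPM with panobinostat, against 21.9 ± 0.88 CPM with vehicle. RORB rose by 0.36 ± 0.08, and NR2C2 fell by 0.32 ± 0.07. NR1H2, a liver X receptor, had a log2 fold change of 0.29 ± 0.11 and overlapping arms (edgeR adjusted p = 0.0319). That call ended with DESeq2 (adjusted p = 0.0745) and without panobinostat library B or C or vehicle library B or C. NR2C1 (-0.17 ± 0.08) and the clock repressor NR1D2 (-0.01 ± 0.07) did not pass the test.

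**Figure D3:**
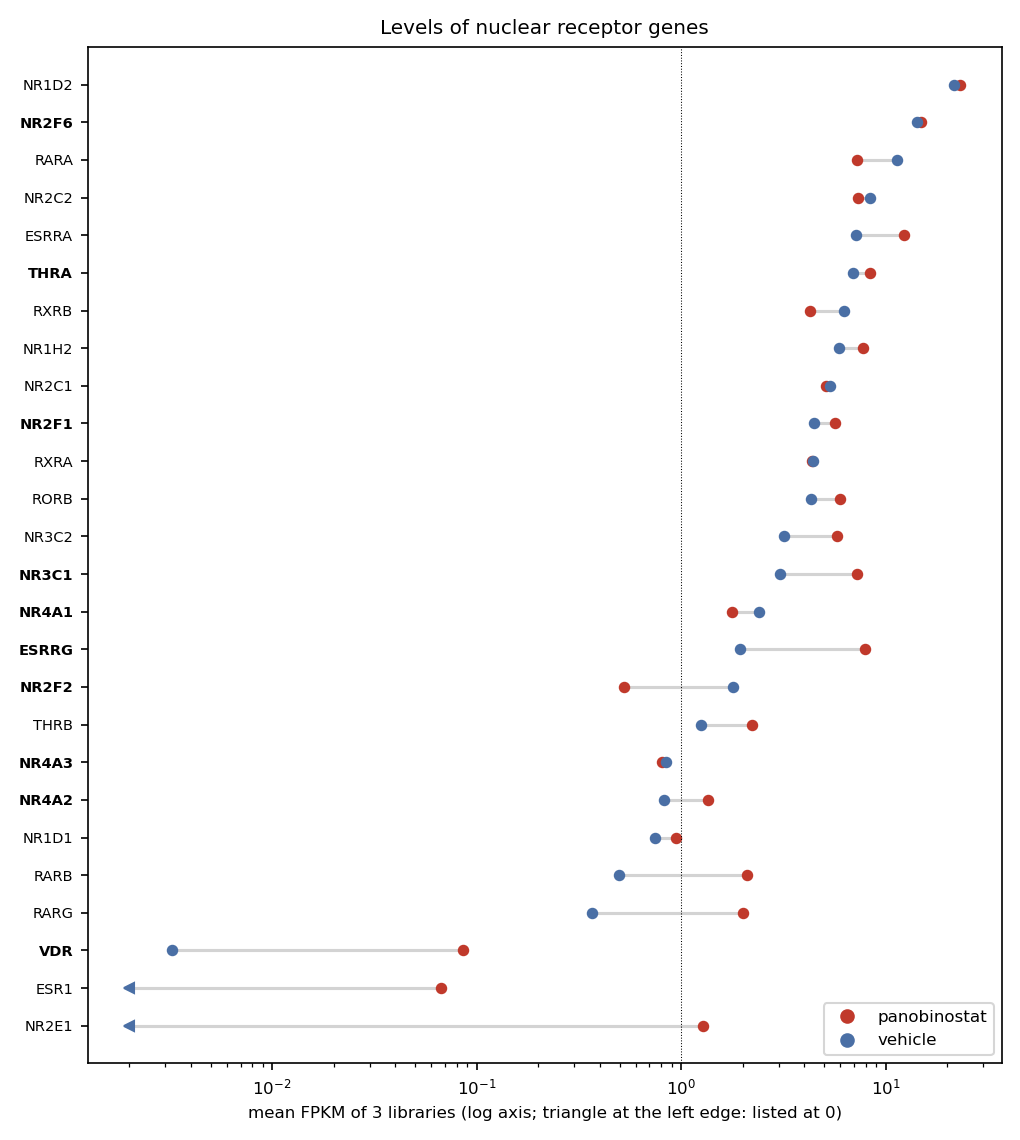
Mean FPKM of 3 libraries (log axis) for the 10 receptors described here, in bold, and the other receptors named in the text, panobinostat in red and vehicle in blue, ordered by vehicle level, with triangles at the left edge for genes listed at 0. Over all 39 nuclear receptor genes with a row in the tables, drawn or not, 26 stood at 1 FPKM or more with panobinostat and 19 with vehicle.

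Of 23 coregulators tested, 3 rose, 11 fell and 9 did not pass the test, with a median log2 fold change of -0.24. Over all genes 33.7% rose and 31.5% fell, and at 10 to 100 CPM 28.5% rose and 40.5% fell. The arginine methyltransferases CARM1 and PRMT1, coactivators of several receptors, fell by 0.95 ± 0.07 and 0.90 ± 0.07. The corepressor scaffold NCOR1, which brings the deacetylase HDAC3 to receptors, fell by 0.62. Of the steroid receptor coactivators, NCOA2 fell by 0.76, and NCOA1 (0.13) and NCOA3 (0.21) did not pass the test.

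**Figure D4:**
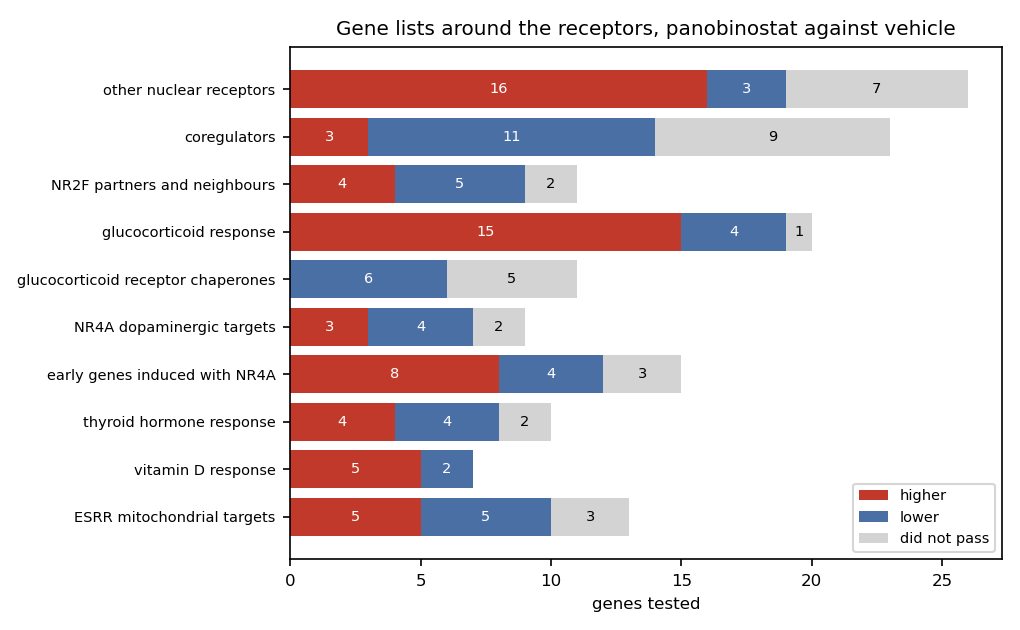
Number of tested genes in 10 lists around the receptors that were higher with panobinostat (red), lower (blue) or did not pass the test (grey). Over all genes 33.7% were higher and 31.5% lower; the lists were not tested as groups, and of the 15 glucocorticoid response genes drawn as higher, some reached the count filter through the panobinostat arm alone, leaving 8 that reached it in both arms.

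**Figure D5:**
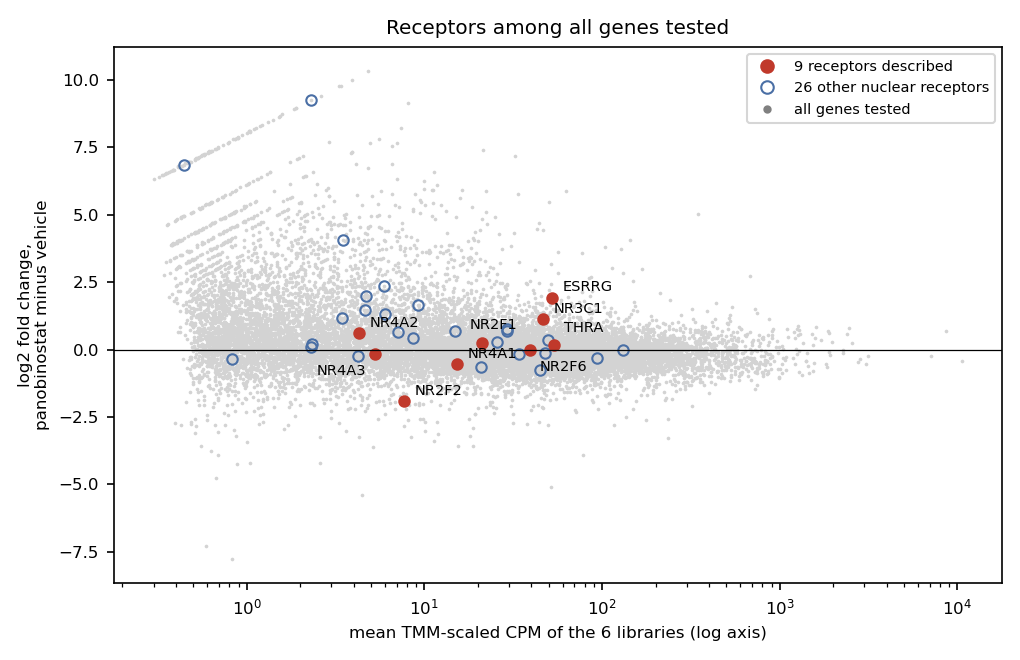
Log2 fold change, panobinostat minus vehicle, against the mean TMM-scaled CPM of the 6 libraries (log axis) for all 16084 genes tested in grey, the 9 tested receptors described here in red and 26 other nuclear receptors as blue rings. The 2 highest rings are NR2E1 and ESR1, which had 0 vehicle counts, so their fitted values are no bound. NR2F2 lies among the lower grey points of its level.

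For the 3 receptors with the largest changes at 10 CPM or more, the genes with the most similar profile over the 6 libraries were sought among 14421 genes by the root mean square difference of centred log2(CPM + 1). For ESRRG these were AC139491.2 (0.0472), PCDH17 (0.0472) and NRXN3 (0.0510). Their fitted log2 fold changes were 8.52, 1.83 and 3.95, against 1.92 for ESRRG. AC139491.2 and NRXN3 are therefore alike to ESRRG on this scale only, and not in fold change. For NR3C1 the most similar genes were CSRNP1 (0.0269), SDCBP (0.0337) and NPC1 (0.0399). For NR4A1 they were FHIP2B (0.0336), GRIP2 (0.0454) and ATXN2L (0.0591). With 3 libraries in each arm, likeness mainly reflects a similar difference between the arms on that scale, where 1 CPM is added before the logarithm.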

How the data were processed

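Arms and letters of the 6 libraries, 3 with panobinostat and 3 with vehicle, come from the labels. Gene counts were deposited as the authors' featureCounts output, version 1.5.0-p3 in the file headers and 1.5.1 in the submitters' processing notes. Novoalign 2.8 and hg38 are named in these notes too. Reads were assigned by strand to Ensembl release 84 genes, per the file headers. The deposited FPKM values are the authors' own. With lengths derived from them, each of the 53265 values backed by at least 100 counts matched the scaled count to 1%. They are thus the same counts in another unit, scaled to the library total without TMM. Arms compared in FPKM can therefore differ from arms compared in CPM. NR2F6 had a mean of 14.9 FPKM with panobinostat and 14.2 FPKM with vehicle, but 38.5 CPM with panobinostat and 39.6 CPM with vehicle.

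The test across genes used edgeR 4.0.16 under R 4.3.3 (filterByExpr with minimum count 10 and minimum total 15, TMM, quasi-likelihood test of panobinostat minus vehicle, Benjamini-Hochberg adjustment over 16084 genes, called at 0.05). An SE was obtained as the absolute log2 fold change over the root of F. Levels between genes are compared in FPKM. Symbols and coordinates are from GENCODE release 29 on GRCh38. Depth per library and its floor are given with the results, and intervals and floors cover counting error only.

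The receptors, the 10 gene lists (200 entries), the cell type markers and the rules were chosen with earlier results of these data known, so list counts are descriptions. From each list up to 4 called genes of largest change, at a mean of at least 1 CPM, are named, with every other receptor at 10 CPM or more. Some genes that this rule takes are not reported here. The examples BCL11A, BCL11B, RET, DDC, FKBP5, TSC22D3, CYP27B1, CYP24A1, ESR1, NCOR1, NCOA1, NCOA2 and NCOA3 were chosen after their values were seen. Alternatives were DESeq2 1.42.0, other scalings and filters, a replicate block, an adjusted p of 0.01, limma 3.58.1 on log2(FPKM + pseudocount), and each library left out.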

Additional observations from a re-analysis of the deposited data

How the results depend on the processing

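Over 17 alternatives, the receptors' fold changes kept their call in 134 cases, newly passed the test in 11 and no longer passed it in 6. ESRRG, NR3C1 and NR2F2 passed the test in the same direction under every alternative. The count of receptors that rose, 3 as reported, was 5 with library size alone, 5 with upper quartile scaling, 5 with limma on log2(FPKM + 1) and a filter at 1 FPKM, 5 with limma on log2(FPKM + 0.1), and 2 to 5 when a library was left out, 5 without vehicle library A. NR2F1 and THRA were the added genes. The count that fell, 2 as reported, was 1 with limma on log2(FPKM + 1) with and without the filter and 1 with limma on log2(FPKM + 0.1), where NR4A1 did not pass, and 2 whichever library was left out. Over all genes the median log2 fold change shifted up by 0.11 with library size alone and by 0.14 with upper quartile scaling. With upper quartile scaling 6570 genes rose and 3827 fell, against 5416 and 5066 as reported. NR2F6, never called, changed sign under several settings.

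With the letter as a replicate block, 3 receptors rose and 2 fell, and 5432 genes rose and 5109 fell. Deviations of same-letter libraries correlated at 0.103, -0.0354 and 0.159 for A, B and C. Panobinostat A and C each correlated best with the vehicle library of the same letter, and panobinostat B with vehicle A (0.0234). These values do not decide whether a letter marks a shared dish, day or batch. The labels do not say so either, and the letters were not taken as pairs. VDR has 1 vehicle count, which limits its ratio to its counting interval. All-gene counts stayed within 1.5 times the reported ones under every alternative.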
